A study of Mus musculus with 6 samples.

Results

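Oxidative phosphorylation is carried out by 4 electron-carrying complexes and the ATP synthase of the inner mitochondrial membrane, and most of their subunits are encoded in the nucleus. The nuclear genes for these subunits were chosen by symbol: names beginning with Ndufa, Ndufb, Ndufc, Ndufs, Ndufv, Uqcr, Atp5, Cox4, Cox5, Cox6, Cox7 or Cox8, together with Sdha, Sdhb, Sdhc, Sdhd, Cyc1 and Cycs, and without the assembly factors named Ndufaf. The rule found 87 of the 22000 symbols in the count table. Of these, 84 had at least 1 CPM (reads of a gene scaled to the size of its library) in all mice of a group and entered the test, among 13185 genes tested in all. The 84 genes were 37 of complex I, 4 of complex II, 9 of complex III, cytochrome c, 17 of complex IV and 16 of complex V. The name rule also brought in 4 genes that are not counted here as encoding a subunit of their complex, namely Ndufa4l2, Cox7a2l, Atp5s and Atp5sl, the last of which is now called Dmac2 and is placed with complex I.

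RNA was taken from the prefrontal cortex (PFC) of wild-type male C57BL/6N mice at 9 weeks of age, with 3 control mice and 3 mice exposed to early life stress (ELS). ELS was social isolation: a male was housed alone under a filter cap from weaning, while controls shared a cage without a cap, and each mouse stayed in its housing until dissection. The cap and the isolation therefore cannot be told apart. Both groups came from litters of the same mother, so the p-values measure the spread between these mice.

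Complex I takes electrons from NADH and complex II from succinate, complex III passes them from ubiquinol to cytochrome c, and complex IV hands them to oxygen. The proton gradient that complexes I, III and IV build drives ATP synthesis by complex V. Neurons depend heavily on this route for their ATP, and the nuclear genes are known targets of the transcription factors NRF1, GABPA, YY1 and ERR alpha.

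The core letters that these factors bind were searched for in the promoters of the genes. The promoters shown hold those letters in capitals and belong to Cox6a1, the widely expressed isoform of a complex IV subunit, to Ndufs6 of complex I, and to Sdha, the succinate-oxidising subunit whose level did not follow the other genes. The windows are from RefSeq on GRCm38.p6, each read 5′ to 3′ on the minus strand of the gene, from 250 bases before to 50 bases after its start. The positions are chr5:115348909-115349208 for Cox6a1, chr13:73328433-73328732 for Ndufs6 and chr13:74350191-74350490 for Sdha.
Cox6a1: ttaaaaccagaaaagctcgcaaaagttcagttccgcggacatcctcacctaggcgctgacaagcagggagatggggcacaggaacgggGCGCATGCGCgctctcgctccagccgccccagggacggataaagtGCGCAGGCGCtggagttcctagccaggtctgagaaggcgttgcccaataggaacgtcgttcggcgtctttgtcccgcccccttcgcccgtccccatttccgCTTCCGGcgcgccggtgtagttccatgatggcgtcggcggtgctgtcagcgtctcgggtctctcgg
Ndufs6: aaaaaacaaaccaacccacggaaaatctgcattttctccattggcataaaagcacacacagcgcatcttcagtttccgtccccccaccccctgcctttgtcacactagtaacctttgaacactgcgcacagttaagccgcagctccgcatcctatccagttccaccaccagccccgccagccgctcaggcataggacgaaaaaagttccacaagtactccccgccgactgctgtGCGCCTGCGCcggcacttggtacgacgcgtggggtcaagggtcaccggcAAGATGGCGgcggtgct
Sdha: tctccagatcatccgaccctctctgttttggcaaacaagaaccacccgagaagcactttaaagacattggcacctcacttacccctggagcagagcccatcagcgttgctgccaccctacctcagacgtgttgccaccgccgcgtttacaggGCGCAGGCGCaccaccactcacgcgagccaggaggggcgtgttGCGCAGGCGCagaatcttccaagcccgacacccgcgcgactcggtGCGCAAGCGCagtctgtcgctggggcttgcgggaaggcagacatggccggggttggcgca
The capitals in Cox6a1 mark 2 matches to the NRF1 form, which is GCGC, 1 free base and then TGCGC, read on either strand, and 1 match to the GABPA letters CCGGAAG on the opposite strand. Ndufs6 holds 1 NRF1 match and 1 match to the YY1 letters AAGATGGCG just after the start. Sdha holds 3 matches to the NRF1 form.

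A promoter window was found for 71 of the 87 genes, 69 of them among the 84 tested. The NRF1 form was in 17 of the 69 (24.6%), against 11.1% of the 9935 tested genes with a window and 5.19% of all 27025 genes with a window. The full NRF1 palindrome, in which the free base is A and whose matches also match the first form, was in 5 of the 69 (7.25%), against 2.28% of tested genes and 1.07% of all. CCGGAAG was in 16 (23.2%), against 18.6% and 9.93%, and AAGATGGCG was in 8 (11.6%), against 3.46% and 1.64%. The ERR alpha letters TCAAGGTCA were in 2 (2.90%), against 0.352% and 0.466%. All searches covered both strands, and 35 of the 69 genes held at least 1 match to the NRF1 form, CCGGAAG or AAGATGGCG. A match is a run of letters and not a measured binding site.

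The libraries differed in depth with the groups. Total counts ran from 28405795 to 35241743 per mouse, every ELS library was deeper than each control library, and the TMM scaling factors ran from 0.992 to 1.02. Neuronal and cortical markers were present in all mice, with Slc17a7 at 1603 CPM in controls and 1598 CPM in ELS mice (means, n = 3) and Tbr1 at 166 and 157 CPM. The 13 genes encoded in the mitochondrial genome were listed at 0 in every mouse and were not measured, so the values below cover the nuclear subunits alone. The library of control mouse 3 stood apart in the genes described here, as set out after the group comparison. In bulk tissue, fewer cells of a type and less RNA per cell cannot be told apart.

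The transcripts of the respiratory chain were abundant in the PFC. The 87 genes together took 1.26%, 1.31% and 1.53% of the counts in the 3 control mice and 1.42%, 1.30% and 1.39% in the 3 ELS mice, a mean of 1.37% ± 0.146 (SD, n = 3) in controls and 1.37% ± 0.0595 in ELS mice. The groups overlapped, and the highest and the lowest share were both in control mice. Per kilobase of the shortest principal transcript, the scale on which genes can be compared with each other, complex IV and V genes stood highest, with medians of 263 and 266 CPM per kilobase, against 157 for complex III, 112 for complex I and 108 for complex II. For 5 of the 87 genes the longest principal transcript was over 2 times the shortest. With the longest the medians were 263, 254, 142, 105.5 and 108, in which complexes IV and V change places, and so do I and II. The highest level of all was that of Cox8a, a small complex IV subunit, at 859 CPM per kilobase. Atp5b, the catalytic beta subunit, led complex V at 621. Uqcrh, the hinge protein of complex III, led its complex at 398, Ndufb8, a membrane-arm subunit, led complex I at 280, and Sdhb, the iron-sulphur subunit, led complex II at 136 CPM per kilobase. Cycs, which encodes cytochrome c, stood at 36.9 CPM per kilobase.

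**Figure D1:**
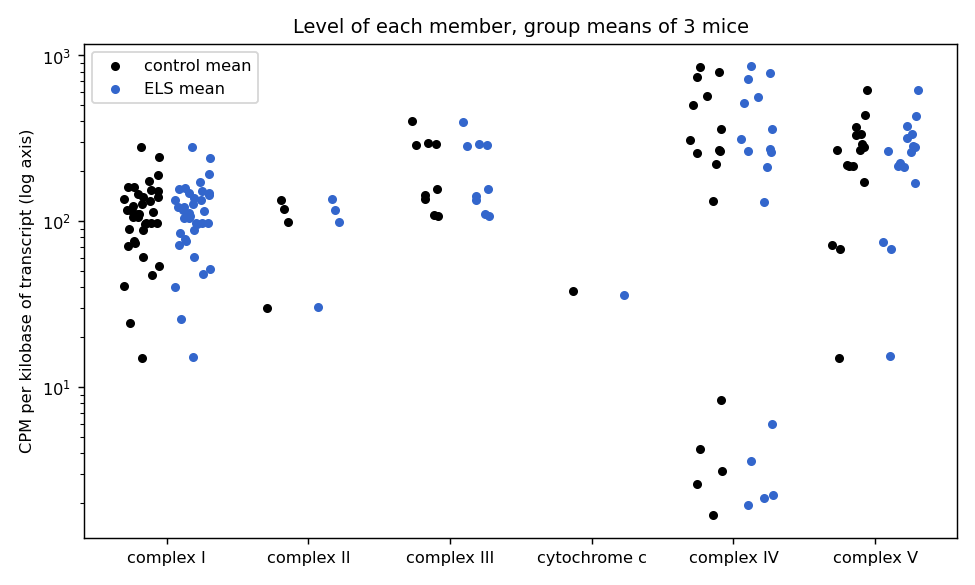
Level of each of the 84 genes tested in CPM per kilobase of transcript (log axis), by complex, with 1 point for the control mean and 1 for the ELS mean of 3 mice. Medians of the numbered complexes run from 108 in complex II to 266 in complex V, and cytochrome c alone lies at 36.9. The 5 genes under 10 CPM form a separate low cluster in complex IV.

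The question was whether social isolation left the expression of these genes changed. None of the 84 genes passed the test at an adjusted p below 0.05 and an absolute log2 fold change above 0.3 in edgeR's quasi-likelihood test, where 0.0152% of all genes tested did. The smallest adjusted p among them was 0.99998, and DESeq2, limma-voom and edgeR's likelihood ratio test also called 0 of the 84, where they called 18, 2 and 28 of all 13185 genes. At an unadjusted p below 0.05, no gene was higher in ELS mice (1.89% of all genes) and 1 was lower (2.34% of all genes), which was Cox6a2. Of the 84, 40 had a log2 fold change above 0, or 47.6%, beside 47.5% of all genes, and 44 lay below. The median log2 fold change of ELS against control was -0.0052, beside -0.0046 over all genes tested, with quartiles of -0.027 and 0.017.

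The complexes did not separate in this comparison. Median log2 fold changes were 0.0043 in complex I (20 of 37 above 0), 0.014 in complex II (3 of 4), -0.016 in complex III (3 of 9), -0.026 in complex IV (6 of 17) and -0.0024 in complex V (8 of 16). Each of these medians turned sign with 1 mouse left out, ranging from -0.056 to 0.093 in complex I, -0.019 to 0.097 in II, -0.080 to 0.085 in III, -0.099 to 0.089 in IV and -0.072 to 0.078 in V, lowest without control mouse 1 and highest without control mouse 3. Summed over the genes of a complex, the ELS level was 0.9995 times the control level in complex I (3646 ± 97.5 against 3648 ± 378 CPM) and 0.994 times in complex IV (3297 ± 138 against 3317 ± 436 CPM). The sum over complex V was 4397 ± 168 CPM in ELS mice and 4416 ± 388 CPM in controls. Each of these differences was far smaller than the spread between mice of a group.

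The intervals give the size of change that these 6 mice leave room for. Among the 79 genes of at least 10 CPM, log2 fold changes ran from -0.076 for Atp5k to 0.087 for Ndufb4, and the 95% intervals of 78 lay wholly inside ±0.3. The lowest bound was -0.29, a ratio of 0.818, for Cox7b, and the highest was 0.32, a ratio of 1.25, for Ndufb4. None of these 79 intervals excluded 0. These are intervals of single genes, and they do not show that the groups were alike.

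**Figure D2:**
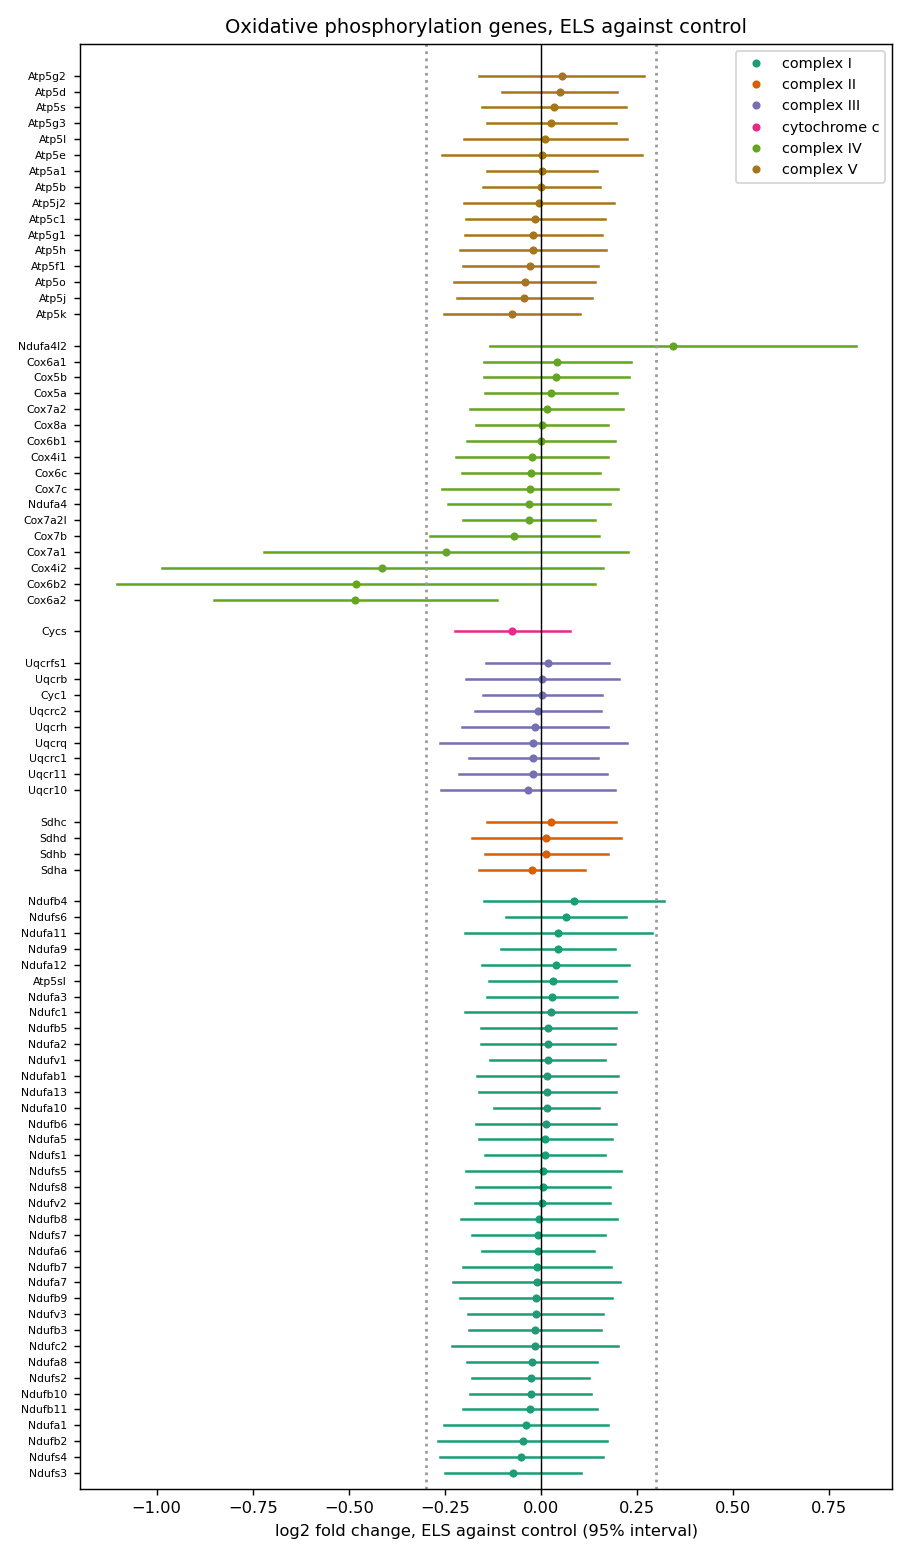
Log2 fold change of each of the 84 genes, ELS against control, as a point with its 95% interval, grouped by complex, with dotted lines at ±0.3. All genes of at least 10 CPM lie between -0.076 and 0.087, and the wide intervals belong to the 5 genes under 10 CPM.

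In complex I, Ndufb8 measured 167, 184 and 221 CPM in the control mice and 192, 180 and 197 CPM in the ELS mice. The control mice spanned a wider range than the ELS mice, and the groups overlapped. Ndufb4, an accessory subunit, had the most positive change of the complex, from 20.3, 22.8 and 28.0 CPM to 24.1, 25.1 and 26.2 CPM, a log2 fold change of 0.09 with a standard error of 0.108. All ELS values lay inside the control range. Ndufs3, a subunit of the peripheral arm, had the most negative change, from 86.6, 89.3 and 106 CPM to 92.8, 87.8 and 87.5 CPM, or -0.07 with a standard error of 0.0812. Its 3 ELS values also lay between the lowest and the highest control.

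Complex II is made wholly of nuclear-encoded subunits. Sdha, the flavoprotein, measured 361, 335 and 339 CPM in control mice and 348, 330 and 340 CPM in ELS mice, with a log2 fold change of -0.02 and a standard error of 0.0635, and the groups overlapped. Sdhb measured 149, 144 and 169 against 161, 154 and 152 CPM. In Sdhb the control values enclosed those of the ELS mice. The membrane anchors Sdhc (87.2, 91.3 and 105 against 95.9, 93.5 and 99.5 CPM) and Sdhd (107, 120 and 137 against 120, 117 and 131 CPM) changed by 0.03 and 0.01 on the log2 scale, and neither was past the spread between mice.

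Complex III and its electron carrier gave values of the same kind. Uqcrh measured 191, 221 and 244 CPM in control mice and 219, 204 and 226 CPM in ELS mice. Uqcrfs1, the Rieske iron-sulphur protein, had the most positive change of complex III (143, 141 and 163 against 157, 147 and 148 CPM, log2 fold change 0.02) and the small subunit Uqcr10 the most negative (107, 131 and 150 against 125, 119 and 135 CPM, -0.03). Every one of their ELS values lay within the control range. Cyc1, which encodes cytochrome c1, measured 154, 159 and 179 against 168, 161 and 165 CPM, a change of 0.0029. Cycs measured 111, 117 and 126 against 109, 114 and 113 CPM, a change of -0.07 with a standard error of 0.0684. For Cycs, 22.6% of the 100-base stretches of its transcript also occur in other annotated genes, so its counts of uniquely mapped reads are uncertain.

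In complex V, Atp5b measured 1159, 1117 and 1291 CPM in control mice and 1235, 1143 and 1191 CPM in ELS mice, the highest counts of all the genes here, and its log2 fold change was 0.00070. Atp5k, subunit e of the membrane part, measured 113, 124 and 134 against 116, 108 and 127 CPM, with a change of -0.08 and a standard error of 0.0815. Only 1 of its 3 ELS values lay outside the control range, below it. The 3 genes that encode the same mature subunit c of the rotor differ in level. Atp5g3 measured 242, 258 and 295 against 276, 262 and 272 CPM, Atp5g1 120, 120 and 146 against 130, 126 and 124 CPM, and Atp5g2 28.0, 30.1 and 37.0 against 34.1, 31.5 and 33.1 CPM. The ratio of Atp5g3 to Atp5g1 per kilobase was 1.72 ± 0.0644 in controls and 1.78 ± 0.0484 in ELS mice, and that of Atp5g3 to Atp5g2 was 5.19 ± 0.237 and 5.07 ± 0.0687 (SD, n = 3) and each difference was smaller than the SD of the control mice. The size of these ratios depends on the transcript taken for length: with the longest principal transcript in place of the shortest, an alternative chosen after the values were seen, they were 13.5 ± 0.503 and 13.9 ± 0.378 for Atp5g3 to Atp5g1, and 8.49 ± 0.389 and 8.30 ± 0.112 for Atp5g3 to Atp5g2. Of the Atp5g2 transcript, 34.7% of 100-base stretches are shared with other genes.

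Complex IV has subunits with a widely expressed and a restricted isoform, and the restricted forms gave the largest fold changes. Cox4i1, the common form of subunit 4, measured 526, 567 and 679 CPM in control mice and 599, 535 and 609 CPM in ELS mice, while Cox4i2, known as a lung and hypoxia form, measured 1.53, 1.63 and 2.51 against 1.47, 1.09 and 1.70 CPM. The ranges of Cox4i2 overlapped, and its log2 fold change of -0.41 had a standard error of 0.264 and was -0.16 without control mouse 3. Cox8a, the common form of subunit 8, measured 432, 455 and 528 against 474, 455 and 489 CPM. Its partners Cox8b and Cox8c were below the level tested, with counts of 1, 10 and 1 against 1, 5 and 6 for Cox8b and 0, 0 and 0 against 0, 0 and 1 for Cox8c. Cox7b2, known as a testis form, was the third gene below that level, with counts of 3, 2 and 2 against 1, 12 and 3.

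Cox6a2, the heart and muscle form of subunit 6a, lies at chr7:128205435-128206387 on the minus strand of GRCm38. It measured 6.49, 5.87 and 4.75 CPM in control mice and 4.76, 3.80 and 3.69 CPM in ELS mice, with means of 5.70 ± 0.885 and 4.08 ± 0.592 CPM (SD, n = 3). The lowest control value lay just under the highest ELS value, and the other 2 values of each group were apart. The log2 fold change was -0.48 with a standard error of 0.170 and a 95% interval of -0.85 to -0.12. In edgeR's quasi-likelihood test its unadjusted p was 0.0142 and its adjusted p 0.99998, so it was not called, and adjusted p ranged from 0.195 to 1 over the alternative settings. Without control mouse 1, its change was -0.38 and its unadjusted p 0.0708, and without ELS mouse 3 they were -0.42 and 0.0543. Its exons overlap those of Itgad, on the opposite strand, over 10.3% of their length. Its common partner Cox6a1 measured 262, 272 and 330 against 290, 284 and 315 CPM, a change of 0.04. The skeletal muscle markers were at or near 0 in every mouse apart from Acta1 (1 of the 5 passed the level tested), at a summed 11.2 ± 0.556 CPM in controls and 11.2 ± 0.923 CPM in ELS mice.

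Among the other restricted forms, Cox7a1, the heart and muscle form of subunit 7a, was the only gene of the 84 whose groups did not overlap, beside 4.48% of all genes with every ELS mouse below every control mouse and 3.8% with every ELS mouse above. It measured 1.66, 1.63 and 1.71 CPM in control mice and 1.62, 1.23 and 1.36 CPM in ELS mice, and its log2 fold change of -0.25 had a standard error of 0.218 and an unadjusted p of 0.280. The highest ELS value was only just under the lowest control value. The common form Cox7a2 measured 180, 195 and 238 against 206, 201 and 213 CPM, and Cox7a2l, which acts in supercomplex assembly, 130, 140 and 160 against 142, 136 and 142 CPM. Cox6b2, known as a testis form of subunit 6b, measured 1.33, 1.20 and 1.81 against 1.26, 0.686 and 1.18 CPM (-0.48, standard error 0.287, and -0.25 without ELS mouse 2), and the common Cox6b1 198, 213 and 256 against 221, 215 and 231 CPM. Ndufa4l2, a hypoxia-induced relative of the complex IV subunit Ndufa4, had the most positive change of all, from 1.56, 1.27 and 1.88 CPM to 1.86, 2.14 and 1.98 CPM, or 0.34 with a standard error of 0.219. Its lowest ELS value fell below its highest control value. Ndufa4 itself measured 289, 316 and 394 against 328, 320 and 330 CPM.

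Of these 5 genes under 10 CPM, Cox6b2 entered the test only through the control mice, since ELS mouse 2 had 0.686 CPM, so its lower level in ELS mice was in part fixed by the filter and no count or median over the 5 is given. The ratios of common to restricted form per kilobase were as follows. Cox4i1 to Cox4i2 was 313 ± 43.0 in controls and 409 ± 66.9 in ELS mice, Cox6a1 to Cox6a2 was 62.0 ± 18.3 and 87.7 ± 14.7, Cox6b1 to Cox6b2 was 117 ± 14.2 and 172 ± 55.7, and Cox7a2 to Cox7a1 was 73.2 ± 9.06 and 88.9 ± 11.3 (SD, n = 3). The ratio Ndufa4 to Ndufa4l2 was 443 ± 65.6 in controls and 339 ± 28.3 in ELS mice. None of the 5 restricted forms passed the adjusted threshold.

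**Figure D3:**
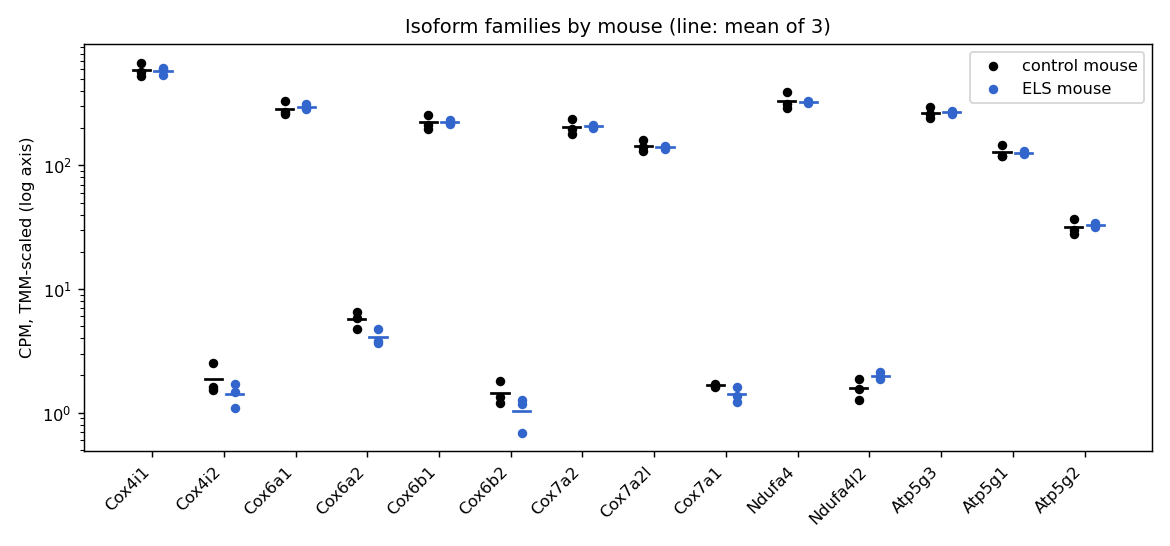
CPM of each mouse (points, log axis) and mean of 3 mice (lines) for the isoform genes of complex IV and the ATP synthase subunit c genes, controls in black and ELS in blue. The restricted forms Cox4i2, Cox6b2, Cox7a1 and Ndufa4l2 lie at 0.686 to 2.51 CPM and Cox6a2 at 3.69 to 6.49 CPM, far below their common partners.

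The genes varied more from mouse to mouse than from group to group. Control mouse 3 was the highest of the 6 mice for 76 of the 84 genes, or 90.5%, where it was the highest for 25.2% of all genes tested. Control mouse 1 was the lowest for 59 of the 84, or 70.2%, beside 17.7% of all genes. Of the 84 genes, 5, 13 and 82 lay above their own mean over the 6 mice in control mice 1, 2 and 3, and 56, 7 and 62 in ELS mice 1, 2 and 3. The median log2 deviation from that mean was -0.13, -0.05 and 0.17 in the control mice and 0.02, -0.05 and 0.03 in the ELS mice. Both extremes therefore stood in the control group, and the ELS mice lay between them.

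The genes moved together across the mice. Over the 6 mice, Pearson's r between a gene and the mean of the other genes tested was above 0.5 for 79 of 84 genes, or 94.0%, with a median of 0.919, beside 26.5% of the 13101 other genes against the same mean. The points share libraries, so this is a description and carries no test. The 5 exceptions were Sdha (r = -0.26), Cox6a2 (-0.36), Cox7a1 (0.29), Ndufa4l2 (0.31) and Atp5sl (0.33). Sdha was highest in control mouse 1 (361 CPM) and Cox6a2 likewise (6.49 CPM), which is the mouse where most of the genes were lowest. Among the 79 genes of at least 10 CPM, the highest mouse was a median 1.24 times the lowest, from 1.07 for Ndufa10 to 1.45 for Atp5e, the epsilon subunit of the ATP synthase, and control mouse 3 was a median 1.23 times control mouse 1. The median SD between mice of a group was 0.122 on the log2 scale, beside 0.113 over all genes.

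**Figure D4:**
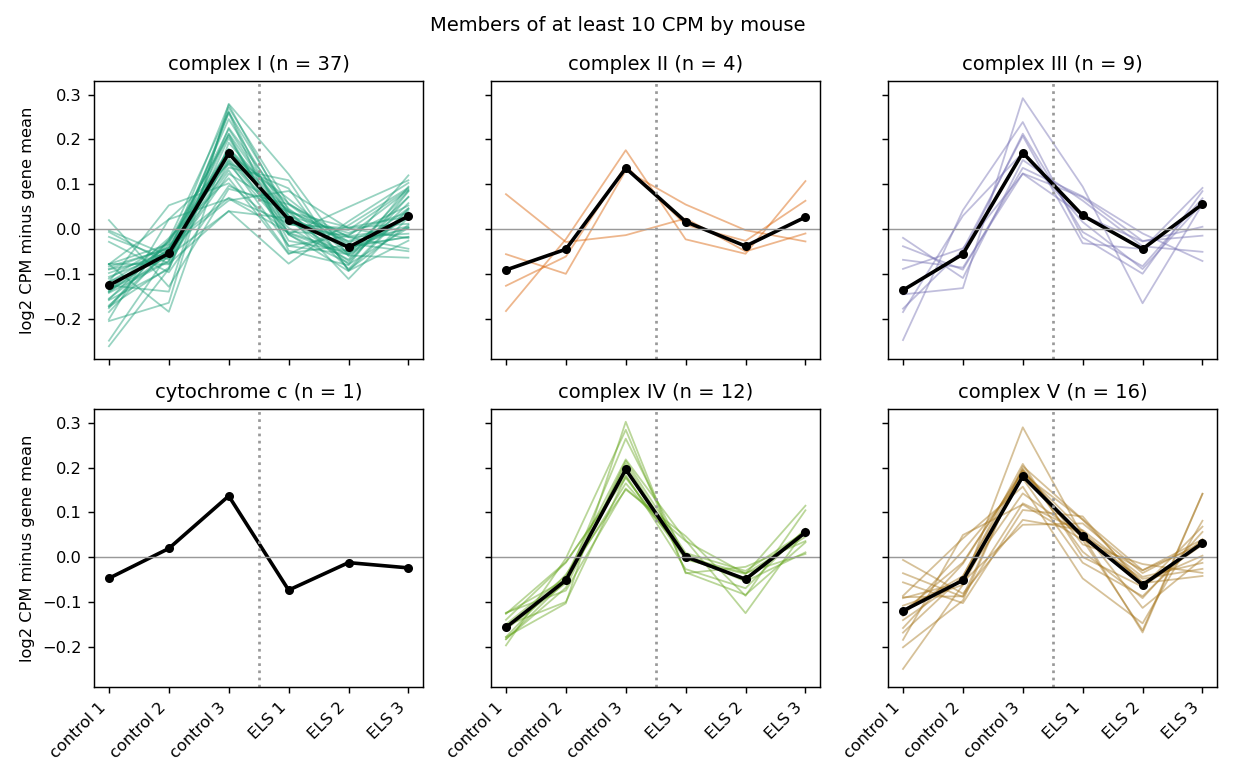
Log2 CPM minus the gene's mean over 6 mice for the 79 genes of at least 10 CPM, 1 thin line a gene and the median in black, by complex, with controls left and ELS mice right of the dotted line. Control mouse 3 is high in each complex, and Sdha is the line of complex II that starts high in control mouse 1.

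An r above 0.5 was found for nearly all genes with a promoter window, so the motif letters could not divide them. Of the genes with the NRF1 form in their window, 16 of 17 had an r above 0.5, and of those without it 50 of 52. The counts were 16 of 16 with and 50 of 53 without CCGGAAG, and 7 of 8 with and 59 of 61 without AAGATGGCG. Sdha, with the 3 NRF1 matches printed above, was among the exceptions.

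The regulators themselves were also compared between the groups. Ppargc1a, the coactivator of mitochondrial biogenesis, was at 53.3 ± 5.64 CPM in controls and 55.3 ± 4.61 CPM in ELS mice, Nrf1 at 12.7 ± 0.134 and 13.3 ± 0.607, Gabpa at 28.0 ± 0.321 and 26.3 ± 2.02, Esrra at 57.1 ± 5.20 and 54.3 ± 3.41, and Tfam, the factor of mitochondrial DNA, at 41.4 ± 2.21 and 41.9 ± 1.33 (SD, n = 3). Of the 17 regulator genes listed, 0 had an unadjusted p below 0.05, beside 4.23% of all genes tested.

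Transcript length moved with the same difference between mice. The median shortest principal transcript was 751.5 bases for the 84 genes and 2947 bases for all genes tested. Under 1000 bases, control mouse 3 exceeded control mouse 1 by a median 0.34 on the log2 scale in the 54 respiratory genes and by 0.27 in 737 other genes. From 1000 to under 2000 bases the difference was 0.24 (23 genes) against 0.12 (2699 genes), and at 2000 bases or more it was 0.09 (7 genes) against -0.06 (9231 genes). Within each length class the respiratory genes showed the larger difference, and the other short genes showed it too. The 82 cytosolic ribosomal protein genes had median deviations of -0.16, -0.07 and 0.23 in the control mice and 0.05, -0.12 and 0.06 in the ELS mice, and the 76 mitochondrial ribosomal protein genes -0.09, -0.06 and 0.16 and 0.03, -0.05 and 0.005. The part of length in the shared pattern was not tested.

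**Figure D5:**
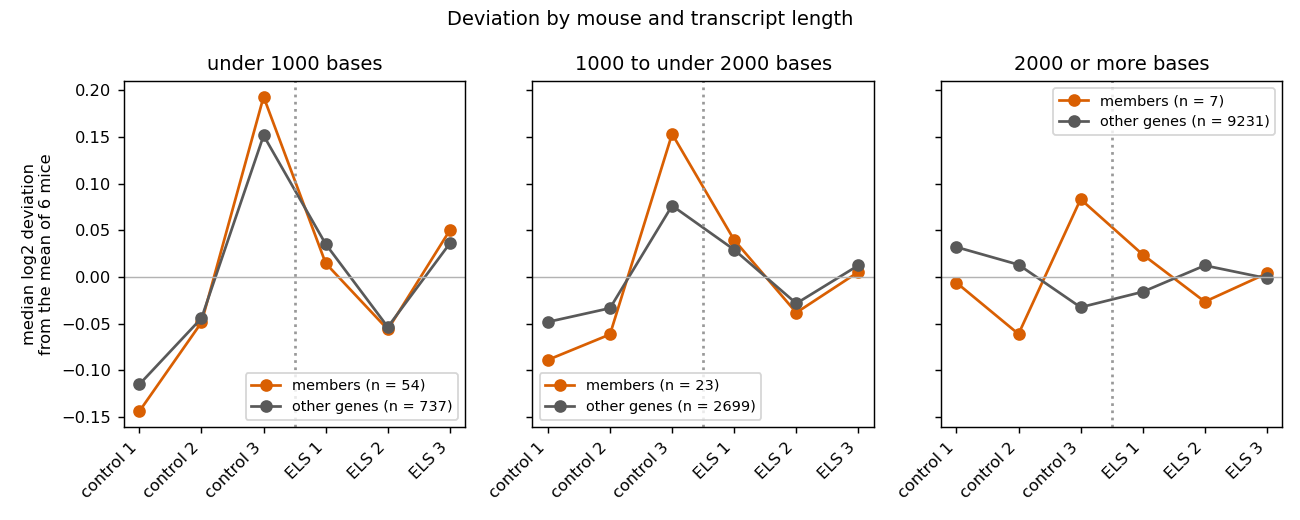
Median log2 deviation from the mean of 6 mice, by mouse, for the respiratory genes (orange) and all other genes tested (grey) in 3 classes of transcript length. Control mouse 3 is high among short genes of both kinds, at 0.19 and 0.15 under 1000 bases, and the other genes of 2000 bases or more lie at -0.03 there.

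Lists of markers of other cells and of a neighbouring region also differed between the mice, some high in control mouse 3 and others low there. All 5 oligodendrocyte markers passed the level tested, and their summed level was 5661, 5827 and 7549 CPM in the control mice and 6619, 5752 and 6291 CPM in the ELS mice. Of the 6 striatal markers, 5 were measured and all 5 passed. Their summed level was 183, 200 and 334 CPM in the control mice and 309, 203 and 226 CPM in the ELS mice. Control mouse 3 had the highest sum in both lists and ELS mouse 1 the next, although the median deviation of the striatal markers was highest in ELS mouse 1 (0.58, against 0.54 in control mouse 3). The 5 interneuron markers, all of which passed, had median deviations of -0.07, -0.02 and 0.13 in the control mice and 0.006, -0.05 and 0.06 in the ELS mice, with a summed level of 723, 750.4 and 777 CPM and then 748, 725 and 769 CPM. The 4 blood markers, all of which passed, summed to 45.1, 53.1 and 75.3 CPM in the control mice and 73.1, 47.2 and 57.3 CPM in the ELS mice. Control mouse 3 was again the highest in both sums. None of the markers measured in these 4 lists was at 0. Single markers in them differed: Mag, Hba-a2, Adora2a, Drd2 and Rgs9 were highest in ELS mouse 1, Gad1 in ELS mouse 3 and Pvalb in control mouse 2. Gad2 was highest in ELS mouse 1 (140 CPM) and lowest in control mouse 3 (126 CPM). The 5 neuronal markers had a median deviation of -0.11 in control mouse 3 and -0.12 in ELS mouse 1, where the respiratory genes had 0.02. Of the 5, Snap25 was highest in control mouse 3, at 4156 CPM. The median deviation was lowest in control mouse 3 for the oligodendrocyte precursor markers (-0.33) and the endothelial markers (-0.16). For the cortical projection neuron markers it was 0.15, 0.11 and -0.11 in the control mice and -0.13, 0.10 and -0.11 in the ELS mice. The astrocyte (0.09) and microglial (0.08) markers had their highest median deviation in control mouse 3. The part of these lists in the pattern of the respiratory genes was not tested.

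The group comparison of the respiratory genes depended on single mice, most on control mouse 3. Without that mouse 77 of the 84 genes were higher in ELS mice, beside 50.2% of all genes, and the median log2 fold change was 0.09, a ratio of 1.06. Without control mouse 1, 11 of the 84 were higher and the median was -0.07, and without control mouse 2 or ELS mouse 1 the counts were 18 and 26. Leaving out ELS mouse 2 gave 59 of 84 higher and a median of 0.02, and leaving out ELS mouse 3 gave 29 and -0.02. Without control mouse 3, 6 genes were higher at an unadjusted p below 0.05 (4.45% of all genes) and 1 was lower (7.24%). The 6 were Ndufa11, Ndufb4, Ndufa12, Ndufc1, Atp5g2 and Cox6a1, with log2 fold changes of 0.15 to 0.22, and the lower gene was Cox6a2 at -0.60. None passed the adjusted threshold there either, where 0.219% of all genes were called, and the smallest adjusted p of edgeR's quasi-likelihood test was 0.195, for Cox6a2. The sign of the list's median changed with the mouse left out, so no direction is given for it.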

How the data were processed

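PFC RNA of 6 mice, 3 per group, gave 1 library each. The authors trimmed the reads, aligned them to mm10 with STAR (2.7.1a in the submitters' processing notes, another version in the methods) and counted uniquely mapped reads with HTSeq 0.9.1. The deposited values are raw counts by gene symbol in each mouse, without scaling or pooling. The labels and the methods name different kits, both strand-specific, and the strand setting of the counting and the annotation release are not given in the sources used here. Columns not used were 0 in number. Columns abbreviated after social isolation were taken as those of ELS mice, by number.

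Counts were analysed in R 4.3.3. A gene entered when every mouse of either group reached 1 CPM, TMM factors were computed, and edgeR 4.0.16's quasi-likelihood test was fitted over all genes with group as its only term and Benjamini-Hochberg adjustment. CPM values are TMM-scaled, and standard errors come from the F statistic. Totals of 28405795 or more keep counting error small for all but the genes of a few CPM, and 3 mice per group limit the precision. Per-mouse deviations used a prior count of 2. GENCODE M21 (GRCm38) held 90.3% of the symbols, all 87 respiratory genes among them. Promoters came from RefSeq.

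The genes named were those at an unadjusted p below 0.05, the highest in level per kilobase and the 2 extremes of change in each complex, the Sdh genes, Cyc1, Cycs, the isoform families and those below the level tested. Ndufs6, and the genes listed for leaving out control mouse 3 or as exceptions in correlation, were chosen after their values were seen. The respiratory genes and the companion and marker lists were chosen with earlier results of these data known. The fit was tested on simulated data. Alternatives were DESeq2 1.42.0, limma-voom (limma 3.58.1), a likelihood ratio test, other scalings and filters, a replicate block, a wider threshold, subunit genes alone and leaving out each mouse.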

Additional observations from a re-analysis of the deposited data

How the results depend on the processing

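No gene of the 84 was called under any test, scaling, filter or left-out mouse, nor at an adjusted p below 0.1 without a fold threshold. The count at an unadjusted p below 0.05 was 1 under every setting with all mice, and 0 to 7 when a mouse was left out. Genes higher in ELS mice numbered 39 to 47 with all mice and 11 to 77 with a mouse left out, and the median log2 fold change ran from -0.0061 to 0.0057 and from -0.069 to 0.087. The cause was not tested beyond the values given for control mice 1 and 3. Changes near 0 turned their sign. Atp5b was -0.000050 with filterByExpr and -0.000094 with 1 CPM required in every mouse. Cox6b1 was 0.00043 in DESeq2, 0.0071 in limma-voom, 0.00044 with DESeq2 size factors, 0.0100 by upper quartile, 0.0093 by library size and 0.0014 without a filter. Ndufb8 was 0.0043 in limma-voom, 0.0061 by upper quartile and 0.0055 by library size.

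The replicate numbers of the labels are shared between the groups, and no pairing of the mice is stated. Over all genes tested, centred within each group, same-numbered mice correlated at r = -0.12, 0.21 and -0.03. With so few mice this cannot show whether same-numbered mice shared a litter or batch. With a replicate block, 43 of 84 genes were higher, the median was 0.0022 and 1 gene was at an unadjusted p below 0.05. The block called 0 of the 84, while among all genes tested it called 7, against 2 without it. Cox6b1 was 0.0069 and Ndufb8 0.0040 there.

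With 1 mouse left out, log2 fold changes that turned sign ranged from -0.042 to 0.063 for Atp5b, -0.069 to 0.080 for Atp5g1, -0.028 to 0.18 for Atp5g2, -0.034 to 0.11 for Atp5g3, -0.100 to 0.087 for Cox4i1, -0.021 to 0.15 for Cox6a1, -0.077 to 0.11 for Cox6b1, -0.067 to 0.14 for Cox7a2, -0.099 to 0.053 for Cox7a2l, -0.057 to 0.089 for Cox8a and -0.039 to 0.067 for Cyc1. They ranged from -0.12 to 0.11 for Ndufa4, -0.015 to 0.22 for Ndufb4, -0.092 to 0.11 for Ndufb8, -0.13 to 0.021 for Ndufs3, -0.044 to 0.010 for Sdha, -0.031 to 0.085 for Sdhb, -0.027 to 0.11 for Sdhc, -0.068 to 0.11 for Sdhd, -0.15 to 0.085 for Uqcr10, -0.020 to 0.087 for Uqcrfs1 and -0.11 to 0.069 for Uqcrh. Of the forms of complex IV under 10 CPM, Cox6a2 ranged from -0.61 to -0.38 and Cox4i2 from -0.56 to -0.16 (without control mouse 3). Cox7a1 ranged from -0.36 to -0.16 (without ELS mouse 2) and Ndufa4l2 from 0.22 (without control mouse 2) to 0.49. Their signs did not change, but these fits share most of their mice and are not separate tests of direction. Cox6a2 was also named for its unadjusted p. Cox6b2 ranged from -0.65 to -0.25 (without ELS mouse 2). It entered the test only through the control mice, so its sign was in part fixed by the filter and is not read.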

Other observations

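Genes that work beside the respiratory chain gave no call either. None of the 14 complex I assembly factors, 10 of complexes II and III, 22 of complex IV, 4 of complex V, 20 citric acid cycle genes, 12 carriers and porins or 4 further accessory genes that were tested had an unadjusted p below 0.05, where 4.23% of all genes tested did. Their log2 fold changes were above 0 in 5, 4, 9, 3, 11, 5 and 1 of them, beside 47.5% of all genes. Those with the smallest p included Ndufaf3, a complex I assembly factor, at 32.1 ± 1.76 CPM in controls and 35.6 ± 0.270 CPM in ELS mice (log2 fold change 0.15, unadjusted p of edgeR's quasi-likelihood test 0.0610), and Cox18, which inserts a core subunit of complex IV into the membrane (0.22, unadjusted p 0.0685).

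Genes of the ribosomes had levels across the mice that resembled those of the respiratory genes, and no single gene among them had an unadjusted p below 0.05, beside 1.89% of all genes higher and 2.34% lower. Of 76 mitochondrial ribosomal protein genes, 22 had a log2 fold change above 0, with a median of -0.02, and of 82 cytosolic ones 32 did, with a median of -0.0047 beside -0.0046 over all genes, of which 47.5% were above 0. Leaving out each mouse in turn, chosen after these values were seen, gave 8 (without control mouse 1) to 64 (without control mouse 3) above 0 among the mitochondrial and 2 to 82 among the cytosolic genes, without the same mice. No direction is given for either list.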
